A study of Mus musculus with 6 samples.

Results

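Cxcl9, Cxcl10 and Cxcl11 encode the ligands of the chemokine receptor CXCR3, and Cxcr3 encodes the receptor itself. They are 4 of the 54532 genes in a table of RNA-seq values from colitis-associated colon tumors of mice, and all 4 were found in it by their gene names. They were chosen by name with their values in these tumors already known, so their difference between the genotypes is described here and not tested. Of the 6 tumors, 3 came from Tmem173fl/fl mice, in which the STING gene Tmem173 carries loxP sites but no Cre is present, and 3 from Tmem173iΔmye mice, which carry the same floxed gene and Lyz2-Creert2 (spelled Lzym-Creert2 in the series' design text). Tumors were induced in both groups with azoxymethane (AOM) and 3 cycles of dextran sodium sulfate (DSS), and tamoxifen (TAM) was injected only after the third cycle, with or without the Cre. These groups are named AOM+DSS-L. The study describes its gene-modified mice as C57BL/6N in background. Lyz2 drives the Cre in macrophages, monocytes and neutrophils, so the deletion is not set in every cell of the tumor, and no group had the Cre without the floxed gene, so an effect of the Cre and of the deletion cannot be told apart. The age at which tumors were taken is not given in the sources used here.

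CXCL9, CXCL10 and CXCL11 are small secreted proteins that attract CXCR3-bearing cells, chiefly activated T helper 1 cells, cytotoxic CD8+ T cells and natural killer cells. Macrophages, dendritic cells, epithelial and stromal cells make them, above all in answer to interferon-gamma, and CXCL10 also follows type I interferon and NF-κB. In colon tumors these ligands are best known as markers of an interferon-gamma response with T cell infiltration. Whole tumor RNA mixes all of these cells, so fewer cells of a type and less RNA per cell cannot be told apart in any value below.

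The 3 ligand genes lie side by side on the minus strand of mouse chromosome 5 (GRCm38). Cxcl9 runs from 92321347 to 92328079, Cxcl10 from 92346638 to 92348889 and Cxcl11 from 92359544 to 92365485. Cxcr3 lies on the minus strand of chromosome X, from 101731535 to 101734269. The 250 bases before the start of Cxcl9 and of Cxcl10 are shown because these neighbors moved together across the tumors. They come from RefSeq on GRCm38.p6, minus strand, at chr5:92328080-92328329 for Cxcl9 and chr5:92348890-92349139 for Cxcl10, and the capitals mark letters that match the core of an interferon-stimulated response element (ISRE) or a κB motif.

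Cxcl9: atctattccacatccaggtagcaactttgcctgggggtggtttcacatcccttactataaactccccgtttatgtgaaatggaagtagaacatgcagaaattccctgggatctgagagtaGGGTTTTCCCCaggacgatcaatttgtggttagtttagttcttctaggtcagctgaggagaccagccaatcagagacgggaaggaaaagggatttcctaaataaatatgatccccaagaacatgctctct

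Cxcl10: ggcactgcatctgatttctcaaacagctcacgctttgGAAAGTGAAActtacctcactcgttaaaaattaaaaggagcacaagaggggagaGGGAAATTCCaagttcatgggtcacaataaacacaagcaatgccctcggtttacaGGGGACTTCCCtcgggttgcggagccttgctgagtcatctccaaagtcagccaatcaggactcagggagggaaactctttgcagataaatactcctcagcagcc

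Both strands were searched. The κB letters, GGG and CC set 5 bases apart, were met 130 to 120 bases before the start of Cxcl9, and at 159 to 150 and 104 to 94 bases before the start of Cxcl10. This motif is loose: 45.8% of the 32851 windows of the same length in the RefSeq table hold it. The ISRE core, TTTC and TTTC set 2 bases apart, lies 213 to 204 bases before the start of Cxcl10, read on the opposite strand, and 2.98% of all windows hold it. No match to it was found in the Cxcl9 window. The interferon-gamma activated site, searched as TTCNNNGAA and held by 7.02% of windows, matched neither window. A TATAAA, held by 12.4% of windows, lies 195 to 190 bases before the start of Cxcl9. The window of Cxcr3, chrX:101734148-101734397, ends at the RefSeq start, which lies inside the gene bounds given above. It held a single κB match, 139 to 130 bases before that start, and no other motif. These matches describe letters in these windows and are not shown to be sites. Only these exact letters were searched, so a window without a match may still hold an interferon-responsive element of other letters.

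Cxcl11 is a special case in this genome. GENCODE M21, on GRCm38, lists it as a polymorphic pseudogene with a transcript of 3794 bases, whose coding part of 302 bases is not a multiple of 3, and beside it a protein-coding transcript of 1581 bases that skips 2 bases at 92363177 to 92363178. The first 60 coding bases, chr5:92363155-92363214 on the minus strand in exon 1, are shown because they hold the change of reading frame, and the capitals mark the skipped bases.

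Cxcl11: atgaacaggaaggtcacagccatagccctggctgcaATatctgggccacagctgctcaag

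These are coding positions 37 and 38. Read with them, the frame holds 36 codons before its first stop, and without them it holds 99. The counts therefore measure Cxcl11 RNA and say nothing of a protein. The long transcript also set the gene length of 3794 bases behind the deposited FPKM of Cxcl11, and with 1581 bases its FPKM would run from 0.158 to 4.06 in place of 0.0659 to 1.69.

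Cxcl9 had the highest level of the 4 genes in every tumor. Its FPKM (read fragments scaled by gene length and library size, so comparable between genes) was 4.52, 2.57 and 3.38 in Tmem173fl/fl replicates 1, 2 and 3, and 74.8, 3.69 and 6.42 in Tmem173iΔmye replicates 1, 2 and 3. A single tumor, Tmem173iΔmye replicate 1, stood apart, and replicate 2 of the same genotype lay among the Tmem173fl/fl tumors, so the groups overlapped. The group means were 28.3 ± 40.3 FPKM (SD, n = 3) in Tmem173iΔmye and 3.49 ± 0.98 FPKM (SD, n = 3) in Tmem173fl/fl tumors. In reads, Cxcl9 gave 213, 116 and 171 reads in Tmem173fl/fl against 3581, 178 and 306 reads in Tmem173iΔmye tumors.

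Cxcl10 showed the same tumor at the top. It gave 103, 65 and 102 reads in Tmem173fl/fl against 1282, 96 and 156 reads in Tmem173iΔmye tumors. As FPKM these were 2.93, 1.93 and 2.70 against 35.8, 2.66 and 4.39, with means of 2.52 ± 0.52 (SD, n = 3) and 14.3 ± 18.7 (SD, n = 3). The groups overlapped, since Tmem173iΔmye replicate 2 fell below Tmem173fl/fl replicates 1 and 3. Both ligands were also lowest in the same tumor, Tmem173fl/fl replicate 2, and second highest in Tmem173iΔmye replicate 3.

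Cxcl11 was close to the limit of detection in all tumors but that same one. It gave 7, 4 and 5 reads in Tmem173fl/fl against 102, 4 and 5 reads in Tmem173iΔmye tumors. An exact 95% Poisson interval around the 102 counts ran from 83.2 to 124, and around the 4 counts of Tmem173iΔmye replicate 2 from 1.09 to 10.2, so the tumors other than Tmem173iΔmye replicate 1 cannot be ordered at this depth. Such intervals cover counting error only. The mean FPKM of Cxcl11 over the 6 tumors, 0.352, lay under the minimum of 0.5 set for the genes tested, and its values come from a fit of all genes with any count.

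Cxcr3, the receptor, did not follow its ligands. Its counts were 21, 8 and 20 for Tmem173fl/fl and 25, 10 and 8 in the Tmem173iΔmye tumors, or 0.591 ± 0.249 FPKM (SD, n = 3) and 0.521 ± 0.338 FPKM (SD, n = 3). It too was highest in Tmem173iΔmye replicate 1, at 0.909 FPKM, but Tmem173fl/fl replicate 1 was close behind at 0.777 FPKM. The exact 95% Poisson intervals around their counts, 16.2 to 36.9 and 13.0 to 32.1, overlapped.

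**Figure D1:**
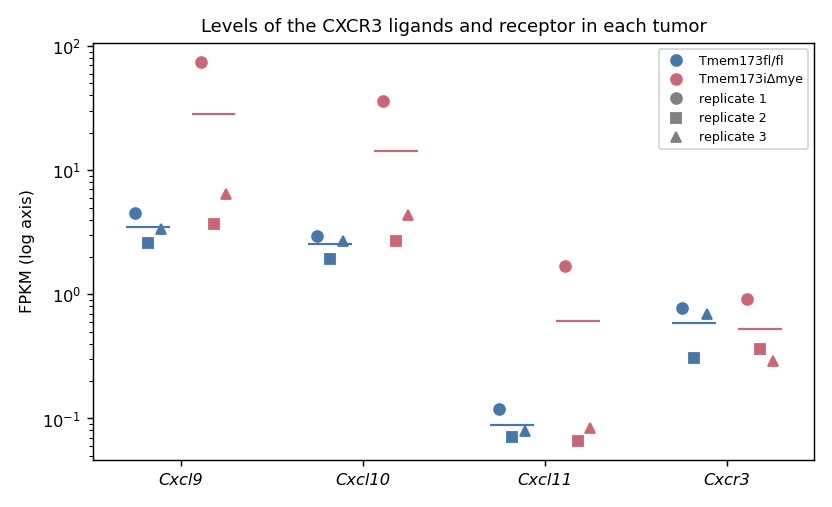
FPKM of each gene (log axis) in the 3 Tmem173fl/fl tumors (blue) and the 3 Tmem173iΔmye tumors (red), with a marker shape for each replicate number and a horizontal line at each group mean. The 3 ligands are far higher in Tmem173iΔmye replicate 1 than in the other 5 tumors, and Cxcr3 is not.

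How far the top tumor lay from the next was computed for every gene from CPM, the counts scaled to a common library size after TMM normalization. The highest CPM of Cxcl9, 226, was 11.6 times the next highest, 19.5 in Tmem173iΔmye replicate 3. For Cxcl10 the ratio was 8.15 (80.9 against 9.93 CPM) and for Cxcl11 14.2 (6.44 against 0.455 CPM), while for Cxcr3 it was 1.16. A ratio of at least 8 was seen in 41 of the 16426 genes tested, or 0.25%. In 18 of these 41 genes, Tmem173iΔmye replicate 1 was the top tumor. The limit of 8 lies just under the ratio of Cxcl10, whose values were known, so this share is a description and not a test. Cxcl11 is not among the genes tested.

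The log2 fold change of Tmem173iΔmye over Tmem173fl/fl from edgeR was 3.01 (SE 1.06) for Cxcl9, 2.50 (SE 0.91) for Cxcl10 and 2.77 (SE 0.95) for Cxcl11. For Cxcr3 it was -0.19 (SE 0.59), smaller than its error. Of the 3 genes tested, Cxcl9 and Cxcl10 reached a log2 fold change of 1, as did 3.12% of all genes tested, and no share is read from this because the difference was known when the genes were chosen. None of the 4 genes separated the groups, whereas 6.03% of the genes tested were higher in every Tmem173iΔmye than in every Tmem173fl/fl tumor and 6.47% were lower.

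The difference in the ligands rested on 1 tumor. Without Tmem173iΔmye replicate 1, the log2 fold change was 0.53 (SE 0.34) for Cxcl9, 0.48 (SE 0.34) for Cxcl10 and -0.24 (SE 0.86) for Cxcl11, and that of Cxcr3 was -0.86 (SE 0.59). Leaving out any of the other tumors kept Cxcl9 between 2.83 and 3.53, Cxcl10 between 2.33 and 2.99 and Cxcl11 between 2.62 and 3.30. Cxcr3 ranged from -0.86 to 0.093 over the 6 omissions and so had no stable sign. The mice also differed in sex: reads of Y-linked genes came from replicate 1 of Tmem173fl/fl and from replicates 1 and 2 of Tmem173iΔmye. With these reads as a covariate the log2 fold changes were 2.12 for Cxcl9, 1.82 for Cxcl10, 1.72 for Cxcl11 and -0.51 for Cxcr3. The other Tmem173iΔmye tumor with Y-linked reads, replicate 2, had 11.2 CPM of Cxcl9.

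**Figure D2:**
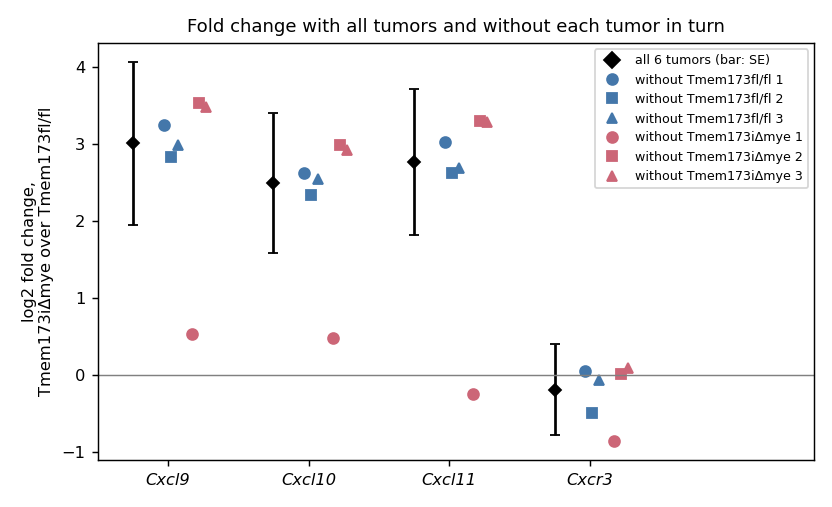
Log2 fold change (vertical axis) of each gene with all 6 tumors (black diamonds, bars are the SE) and without each tumor in turn (colored markers). Leaving out Tmem173iΔmye replicate 1 moves Cxcl9 from 3.01 to 0.53, Cxcl10 from 2.50 to 0.48 and Cxcl11 from 2.77 to -0.24.

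Although the summed level of the ligands ran from 4.57 to 112 FPKM, their proportions stayed within a narrow range. Cxcl9 made up 59.7%, 56.2% and 54.9% of the summed FPKM in the Tmem173fl/fl tumors and 66.6%, 57.5% and 59.0% in the Tmem173iΔmye tumors. Cxcl10 held between 31.9% and 43.8%, and Cxcl11 between 0.766% and 1.56%. The largest share of Cxcl9 and the smallest of Cxcl10 were found in Tmem173iΔmye replicate 1, where the FPKM of Cxcl9 was 2.09 times that of Cxcl10. In the other tumors this ratio lay between 1.25 and 1.54. Cxcl9 was thus above Cxcl10 within 6 of 6 tumors. The group means in Tmem173fl/fl tumors were 3.49 ± 0.98 and 2.52 ± 0.52 FPKM (SD, n = 3). These SDs describe the spread between tumors and not the difference of the 2 genes within a tumor. Cxcr3 stood above Cxcl11 per length in 5 tumors and below it in Tmem173iΔmye replicate 1, at 0.909 against 1.69 FPKM.

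**Figure D3:**
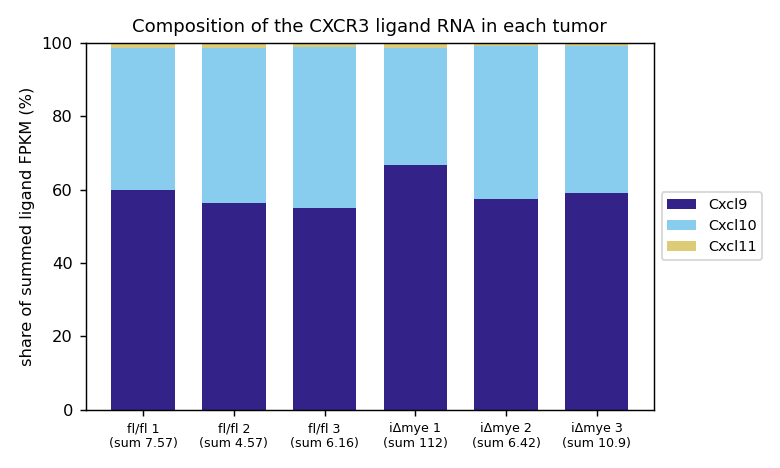
Share of Cxcl9, Cxcl10 and Cxcl11 in their summed FPKM (vertical axis, percent) in each tumor, with the summed FPKM under each bar. Cxcl9 holds between 54.9% and 66.6% in all tumors, although the sum in Tmem173iΔmye replicate 1 is 112 FPKM.

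Cxcr3 was next set beside the genes of the T cell receptor complex, Cd3d, Cd3e and Cd3g, which mark the cells that carry most of the receptor. Per 100 counts of these 3 genes, Cxcr3 had 13.5 (exact 95% binomial interval 8.16 to 21.4), 19.5 (7.90 to 42.2) and 20.2 (11.8 to 32.9) counts in Tmem173fl/fl replicates 1, 2 and 3. In Tmem173iΔmye replicates 1, 2 and 3 it had 12.6 (7.94 to 19.1), 4.69 (2.22 to 8.80) and 8.0 (3.36 to 16.4). The groups did not overlap, but the nearest tumors, at 13.5 and 12.6, were within each other's counting interval, and the ratio was not tested because Cxcr3 was chosen with its values known. No share over all genes was computed for such a ratio. The separation also depended on the denominator. Lck, the most abundant T cell marker, gave 203, 144 and 126 reads in Tmem173fl/fl against 155, 128 and 120 reads in Tmem173iΔmye tumors. Set beside Lck, the Cxcr3 counts of the groups overlapped. Lck did not follow the 3 receptor complex genes, however. Tmem173fl/fl replicate 2 had 144 Lck reads beside 41 counts of these genes, and Tmem173iΔmye replicate 2 had 128 beside 213. Of the 8 T cell markers tested, Lck was the 1 below 0, with a log2 fold change of -0.25 (SE 0.26). With Cd4 and Cd8a added to the 3 genes, the ratio was 7.42, 8.51 and 11.4 in Tmem173fl/fl tumors. In Tmem173iΔmye tumors it was 7.29, 3.19 and 4.35. The groups did not overlap with this denominator, but the nearest tumors lay at 7.42 and 7.29.

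**Figure D4:**
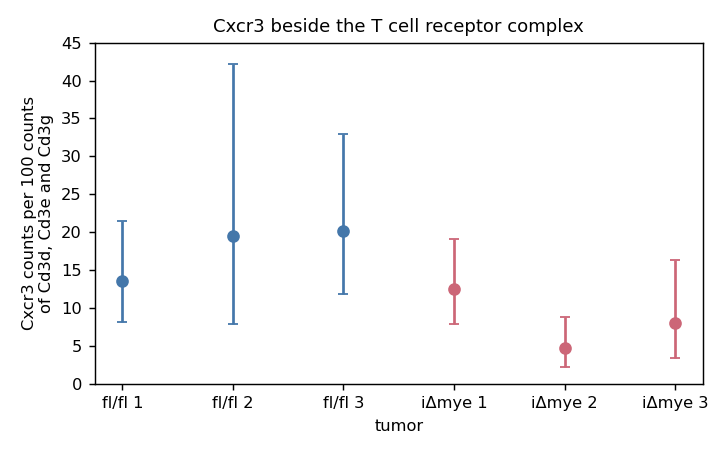
Cxcr3 counts per 100 counts of Cd3d, Cd3e and Cd3g (vertical axis) in each tumor, with exact 95% binomial intervals as bars. The Tmem173iΔmye tumors (red) lie between 4.69 and 12.6, the Tmem173fl/fl tumors (blue) between 13.5 and 20.2, and the intervals of most tumors overlap.

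Genes whose products trim, bind or resemble the ligands were not highest in the tumor with the most ligand RNA. Dpp4, the peptidase that trims and inactivates these ligands, gave 397, 328 and 266 reads in Tmem173fl/fl against 231, 227 and 235 reads in Tmem173iΔmye tumors. Every Tmem173iΔmye tumor was lower, a pattern held by 6.47% of all genes tested. The log2 fold change was -0.54 (SE 0.21; edgeR, Benjamini-Hochberg adjusted p = 0.742), and -0.54 without Tmem173iΔmye replicate 1. Ackr3, a scavenging receptor that takes up CXCL11, was at -0.24 (SE 0.22), and Ackr1, the chemokine-binding receptor of venules, at 0.074 (SE 0.49). Pf4, which encodes the platelet chemokine CXCL4, was at 0.022 (SE 0.40). Of these 4 genes, 0 had an adjusted p-value under 0.05 with edgeR or DESeq2, and Dpp4 alone had an unadjusted p-value under 0.05, as did 6.14% of all genes tested.

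In the interferon-gamma pathway, Ifng, Irf1, Irf8, Socs1 and Ciita were highest in the tumor with the most ligand RNA, and the receptor and kinase genes were not. Ifng itself was listed with 0, 0 and 2 counts in the Tmem173fl/fl tumors and with 50, 0 and 3 counts in the Tmem173iΔmye tumors. At or under 3 counts in 5 tumors, it allows no fold change between the groups, and the exact 95% Poisson interval of the 50 counts was 37.1 to 65.9. The receptor genes Ifngr1 and Ifngr2 had log2 fold changes of 0.0030 (SE 0.22) and -0.13 (SE 0.16), and the kinase genes Jak1 and Jak2 of -0.080 (SE 0.13) and -0.14 (SE 0.12).

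Ciita, the interferon-gamma-induced activator of the MHC class II genes, gave 442, 134 and 151 reads in Tmem173fl/fl against 1656, 298 and 279 reads in Tmem173iΔmye tumors. Its CPM in Tmem173iΔmye replicate 1, 105, was 3.64 times the next highest, in Tmem173fl/fl replicate 1, so the groups overlapped. The log2 fold change of Ciita was 1.59 (SE 0.78, edgeR adjusted p = 0.742). Irf1 and Irf8, interferon-induced transcription factors, were at 0.83 (SE 0.40) and 0.48 (SE 0.34), and Socs1, which inhibits the JAK kinases, at 1.08 (SE 0.53). All 4 of these genes peaked in Tmem173iΔmye replicate 1. Of the 8 tested genes reported from this list, 5 were above 0, with a median log2 fold change of 0.24, where all 16426 genes had a median of -0.0042 and 49.4% were above 0. Without Tmem173iΔmye replicate 1 the median of the list was 0.036. With edgeR, 0 of the 8 had an adjusted p-value under 0.05 and 0 an unadjusted p-value under 0.05, and with DESeq2 0 had an adjusted p-value under 0.05.

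In type I interferon signalling, Irf7 had the highest log2 fold change of the genes tested. Ifnb1 and Ifnl2, which encode interferons, had at most 1 count in any tumor, and Ifnl3 was listed at 0 in all of them. Irf7, the factor that amplifies type I interferon, gave 986, 584 and 605 reads in Tmem173fl/fl against 2042, 995 and 1211 reads in Tmem173iΔmye tumors. As CPM, Tmem173iΔmye replicate 2 at 62.7 lay just under Tmem173fl/fl replicate 1 at 64.1, so the groups overlapped. Its log2 fold change was 0.95 (SE 0.32, edgeR adjusted p = 0.742) and, without Tmem173iΔmye replicate 1, 0.59 (SE 0.26). Irf9 and Stat2, whose products act together below the type I interferon receptor, were at 0.47 (SE 0.15) and 0.67 (SE 0.29), and Irf9 was higher in every Tmem173iΔmye tumor. The CPM of Irf3 did not overlap either, and its log2 fold change was 0.23 (SE 0.14). These were 2 of the 11 genes tested in this list, where 6.03% of all genes tested were higher without overlap. The receptor genes Ifnar1 and Ifnar2, the kinase genes Tyk2 and Tbk1, and Mb21d1, which encodes the DNA sensor cGAS, ranged from -0.16 to 0.16. Among the tested genes of this list, Stat2, Irf7, Ifnar2, Irf9, Tyk2 and Irf3 were highest in Tmem173iΔmye replicate 1. Their top CPM was, in that order, 1.74, 1.67, 1.35, 1.21, 1.06 and 1.01 times the next. Ifnar1, Ifnlr1, Tbk1, Mb21d1 and Tmem173 were highest in other tumors.

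Of the 11 genes tested in this list, 8 were above 0, with a median of 0.15, and 5 without Tmem173iΔmye replicate 1, with a median of -0.0062. Stat2, Irf9 and Irf7 had an unadjusted p-value under 0.05, as did 6.14% of all genes tested, and 0 had an adjusted p-value under 0.05 with edgeR or DESeq2. Tmem173 itself gave 1748, 2911 and 1705 reads in Tmem173fl/fl against 2291, 2245 and 1953 reads in Tmem173iΔmye tumors, so in whole tumor RNA it does not separate the genotypes.

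**Figure D5:**
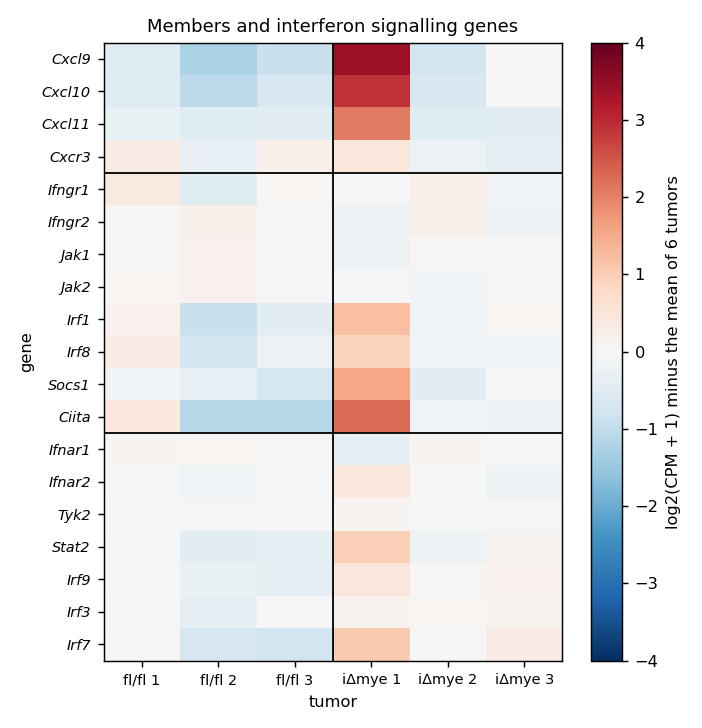
Log2(CPM + 1) minus the mean of the 6 tumors (color) for the 4 genes (top block), 8 genes of interferon-gamma signalling (middle) and 7 of type I interferon signalling (bottom) in each tumor. Tmem173iΔmye replicate 1 is the only tumor with strongly raised ligands. Irf1, Irf8, Socs1 and Ciita are highest in the same tumor, as are Ifnar2, Tyk2, Stat2, Irf9, Irf3 and Irf7. For Tyk2 and Irf3 the top CPM is only 1.06 and 1.01 times the next. Of the type I interferon genes tested, Tbk1, Mb21d1, Ifnlr1 and Tmem173 are not drawn and were highest in other tumors.

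Cytokines that prompt T cells and natural killer cells to make interferon-gamma were scarce or did not pass the test. Il12a, Il12b and Il27 had at most 15 counts in any tumor. As log2 fold changes, Il18 was at 0.18 (SE 0.31), Il15 at 0.045 (SE 0.25), Il15ra at 0.56 (SE 0.44) and Ebi3, whose product pairs with that of Il27, at 0.29 (SE 0.45). These 4 tested genes had a median of 0.24. With edgeR, 0 had an adjusted and 0 an unadjusted p-value under 0.05, and with DESeq2 0 had an adjusted one.

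Other CXC chemokines did not share a single pattern. Cxcl1, Cxcl2 and Cxcl3, ligands of the neutrophil receptor CXCR2, were also highest in Tmem173iΔmye replicate 1, though by less than the CXCR3 ligands: the top CPM was 2.42, 2.22 and 2.53 times the next. Cxcl12, Cxcl16 and Cxcl17 peaked there too, at 1.10, 1.52 and 5.45 times the next. Cxcl17, too scarce to be tested, had 0, 2 and 2 counts in Tmem173fl/fl against 22, 3 and 4 counts in Tmem173iΔmye tumors. Cxcl13, Cxcl14, Cxcl15 and Ppbp were highest in other tumors. Cxcl5, another CXCR2 ligand, was highest in Tmem173fl/fl replicate 2 and had a log2 fold change of -0.31 (SE 0.30). Cxcl13, the B cell attractant, gave 249, 141 and 349 reads in Tmem173fl/fl against 40, 146 and 48 reads in Tmem173iΔmye tumors. As CPM it was lower in every Tmem173iΔmye tumor, as were 6.47% of all genes tested, with a log2 fold change of -1.65 (SE 0.53, edgeR adjusted p = 0.742) and -1.35 without Tmem173iΔmye replicate 1. Cxcl13 was the only one of the 13 tested genes of this list with an unadjusted p-value under 0.05, a share near the 6.14% of all genes tested, and 0 had an adjusted p-value under 0.05 with edgeR or DESeq2. Among the receptors, Cxcr6, carried by resident T cells, was at 1.07 (SE 0.48), Cxcr4 at 0.056 (SE 0.35) and Cxcr2 at 0.43 (SE 0.53). In all, 9 of the 13 were above 0 with a median of 0.39, and 5 with a median of -0.16 without Tmem173iΔmye replicate 1.

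Markers of the cells that make or answer these chemokines were followed as summed CPM. The 11 macrophage markers, of which Lyz2, Cd14 and C1qa had the highest mean FPKM, summed to between 621 and 926 in the Tmem173fl/fl tumors and between 600.2 and 987 in the Tmem173iΔmye tumors. The largest macrophage sum, 987, was that of Tmem173iΔmye replicate 1, and the next, 926, that of Tmem173fl/fl replicate 1. Cd14 and C1qa were highest in the former tumor and Lyz2 in the latter. Per 100 macrophage marker counts, Cxcl9 had 22.9 counts in Tmem173iΔmye replicate 1 and between 1.17 and 3.25 counts in the other tumors. The part of macrophages in the ligand values was not tested. The 10 T cell markers, of which Lck, Cd3d and Cd2 had the highest mean FPKM, summed to between 16.9 and 39.7 in Tmem173fl/fl and between 23.7 and 41.5 in Tmem173iΔmye tumors. Tmem173iΔmye replicate 1 had the largest sum, but Tmem173fl/fl replicate 1, with 13.9 CPM of Cxcl9, was close behind. Of the 8 T cell markers tested, 7 were above 0, with a median of 0.69 and, without Tmem173iΔmye replicate 1, 0.34.

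Natural killer cell markers summed to between 3.47 and 8.65 CPM in Tmem173fl/fl and between 11.5 and 18.6 in Tmem173iΔmye tumors. The largest sum was that of Tmem173iΔmye replicate 1. These sums did not overlap, and no share over all genes was computed for such a sum. Most of this list was scarce: 3 of 9 genes were tested, of which 3 were above 0 with a median of 1.26 (0.57 without Tmem173iΔmye replicate 1), and Ncr1, Klrb1c and Klre1, named here after their values were seen, were at 0 in 1 or more tumors. Gzmb, which encodes a protease of cytotoxic granules, had 49, 26 and 23 against 120, 83 and 89 counts, without overlap. Such a gap was held by 6.03% of all genes tested. Its log2 fold change was 1.55 (SE 0.38, edgeR adjusted p = 0.742). Gzmb gave 7.58 of the 18.6 CPM in Tmem173iΔmye replicate 1. The study lists Gzmb with genes of cytotoxic lymphocytes, so these sums are not particular to natural killer cells. In the T helper 1 list, 4 of 8 genes were tested and 4 were above 0, with a median of 0.58. The 8 dendritic cell markers summed to between 21.1 and 34.6 CPM in Tmem173fl/fl and between 29.9 and 39.1 in Tmem173iΔmye tumors. Cd209a, also named after its values were seen, was at 0 in 4 tumors, and the 2 genes of this list that were tested had a median of 0.12.

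Neutrophil markers were raised in the same tumor as the ligands. They summed to between 66.5 and 211 CPM in the Tmem173fl/fl tumors and to 373, 131 and 113 CPM in Tmem173iΔmye replicates 1, 2 and 3. Of the 5 markers, 4 were highest there. For S100a9 and S100a8, calprotectin subunits that inflamed epithelium can also make, the top CPM was 3.92 and 2.50 times the next, for Csf3r, the receptor of the growth factor G-CSF, 1.70 times and for Cxcr2 1.5 times. Ly6g was highest in Tmem173fl/fl replicate 1, with 1573, 571 and 1454 against 993, 958 and 894 counts. Without Tmem173iΔmye replicate 1 the median of the 5 markers went from 0.74 to -0.32. The part of these cells in the ligand values was not tested.

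Of the tissue lists, B cell markers had a median of -0.82, smooth muscle of -0.50, endothelium of 0.26, fibroblasts of 0.17 and epithelium of 0.21. B cell marker sums ranged from 2.40 to 99.1 CPM in Tmem173fl/fl and from 5.41 to 52.2 in Tmem173iΔmye tumors, more widely than the groups differed. Epithelial markers, of which Krt8, Epcam and Cdh1 had the highest mean FPKM, summed to between 7872 and 9749 CPM over the 6 tumors, far above every other marker list, so the labelled tissue carries its defining markers. Across all these marker lists, 0 genes had an adjusted p-value under 0.05 with edgeR or DESeq2.

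The genes whose pattern over the 6 tumors was most like that of each ligand were taken as those with the smallest root-mean-square difference between centered log2(CPM + 1) values. For Cxcl9 they were Tgtp1 (0.23), Cxcl10 (0.27), Iigp1 (0.31), Igtp (0.37) and Tgtp2 (0.37). For Cxcl10 they were Tgtp1 (0.13), Gm12185 (0.24), Cxcl9 (0.27), Gbp5 (0.30) and Tgtp2 (0.30). Each of these genes is among the interferon-inducible GTPases and their relatives or is the partner ligand. Tgtp1 gave 124, 72 and 134 reads in Tmem173fl/fl against 1672, 95 and 190 reads in Tmem173iΔmye tumors, and the top CPM was 8.73 times the next. Tgtp1 and Tgtp2 are near-identical copies, and reads may have been split between them. Among the first 5 genes, 4 for each ligand were also chosen with 0.1 in place of 1 as the number added.

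The lists for the scarcer genes were not stable. The genes nearest to Cxcl11 were Ighv7-1, Ighv3-8, Igkv5-43, Upp1 and Ly6i, of which 0 were kept with 0.1 added, and those nearest to Cxcr3 were Wtip, Pqlc3, Ptrhd1, Ccdc115 and 2900093K20Rik, of which 1 was kept. With so few counts the number added flattens the profile, so these names describe the scale more than the genes.

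Other genes near the ligands did not share their pattern. Art3 lies on the plus strand from 92331827 to 92414628, spans Cxcl10 and Cxcl11 and shares 133 exon bases with Cxcl10 on the opposite strand. It gave 28, 17 and 43 reads in Tmem173fl/fl against 35, 25 and 40 reads in Tmem173iΔmye tumors. Gm2673, a processed pseudogene on the plus strand, shares 1582 exon bases with Cxcl11 and was listed at 0 in every tumor. The libraries were non-directional, so reads in these shared bases cannot be assigned to a gene by strand. Sdad1 and Naaa, which lie next to Cxcl9 on its far side from Cxcl10, had log2 fold changes of -0.14 (SE 0.14) and 0.55 (SE 0.23). Near Cxcr3, Ogt was at -0.090 (SE 0.18).

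Over the whole table, each tumor had from 15329810 to 16533732 counts in all, and 16426 genes reached the minimum mean FPKM of 0.5 for testing. With edgeR, 0 genes (0.0%) had an adjusted p-value under 0.05 and 1008 an unadjusted p-value under 0.05, and DESeq2 gave 28 genes with an adjusted p-value under 0.05. A change of 1 or more on the log2 scale together with an unadjusted p-value under 0.05 was seen for 207 genes (1.26%) that were higher and 142 genes (0.864%) that were lower in Tmem173iΔmye tumors. Tmem173iΔmye replicate 1 was the highest tumor for 24.9% of the genes tested, and Tmem173fl/fl replicate 2 for 26.6%.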

How the data were processed

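Polyadenylated RNA of 6 tumors, 3 per genotype, was sequenced from non-directional libraries (NEBNext Ultra). Per the submitters' processing notes, the tools were CASAVA 1.8, fastp, HISAT2 2.0.5, featureCounts 1.5.0-p3 and DESeq2 1.20.0, with GRCm38/mm10. Raw counts of reads for each gene were deposited and, beside them, FPKM values, which equal counts divided by gene length, median-of-ratios size factors and the geometric mean of library totals (largest relative difference 4.959e-07). The table also holds the authors' own group means, log2 fold changes and p-values, which were not used.

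Counts of genes reaching 0.5 in mean FPKM were fitted with edgeR 4.0.16 (R 4.3.3; quasi-likelihood, TMM, group as the only term, Benjamini-Hochberg adjustment over all genes tested). Cxcl11 and other genes under this minimum come from a fit of all genes with a count. Fold changes are Tmem173iΔmye over Tmem173fl/fl, and the SE is their size over the root of edgeR's F. The script was tested on simulated data. 1 gene was taken out of the interferon-gamma list after its values were seen, for a reason unrelated to them, and is not reported here, so that list's counts and median describe only its other genes. The 4 genes, the gene lists and the motifs were chosen with earlier results of these data known. Named genes are the 4 genes, the genes of the pathway lists, the 3 most abundant of each marker list, genes within 50 kb and the 5 nearest profiles. Alternatives were other scalings, filters and tools (DESeq2 1.42.0, limma 3.58.1), the replicate number as a block, Y-linked reads as a covariate and leaving out each tumor. The titles number the tumors without saying that each came from its own mouse, so p-values measure the spread between these samples, which may be partly technical. At this depth 3 counts or fewer allow no fold change.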

Additional observations from a re-analysis of the deposited data

How the results depend on the processing

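Apart from leaving out a tumor, no alternative moved the log2 fold changes of Cxcl9, Cxcl10 or Cxcr3 beyond the spread within a group. That spread, as an SD of log2(CPM + 1), was 1.61 for Cxcl9 and 1.35 for Cxcl10. Tmem173iΔmye replicate 1 widens it for these ligands, so staying within it does not show that their values are stable. With limma on log2(FPKM + 1) the log2 fold changes were 1.64 for Cxcl9 and 1.36 for Cxcl10, against 3.01 and 2.50 with edgeR. Cxcl11 had 0.42 and 1.01 with limma on log2(FPKM + 1) and log2(FPKM + 0.1) and 1.72 with Y-linked reads as a covariate. The replicate number does not pair the tumors: the deviations of same-numbered tumors correlated at 0.315, 0.0085 and 0.154, and Tmem173fl/fl replicate 2 correlated best with Tmem173iΔmye replicate 3, at 0.223. With the replicate number as a block, Cxcl9 was at 1.82, Cxcl10 at 1.59 and Cxcl11 at 1.73, and 377 genes passed the limits on fold change and p. Without that block 349 passed, with no filter 872, with limma on log2(FPKM + 1) 131 and with Y-linked reads as a covariate 211. The natural killer median, 1.26 with edgeR, was 0.67 with limma on log2(FPKM + 1), and the dendritic cell median, 0.12 with edgeR, was 0.79 with no filter and -0.045 with Y-linked reads. By counts in place of FPKM, the mean shares of Cxcl9, Cxcl10 and Cxcl11 were 65.3%, 32.9% and 1.78%, against 59.0%, 39.7% and 1.28%, and with the shorter transcript, an alternative added after the values were seen, that of Cxcl11 was 3.01%. Cxcr3 per 100 counts, Tmem173iΔmye minus Tmem173fl/fl, was -4.18 with Cd4 and Cd8a and -9.34 without. Cxcl11 and Cxcr3 could not be fitted at a mean FPKM of at least 1.

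Leaving out each tumor in turn, Cxcl9 ranged from 0.53 to 3.53, Cxcl10 from 0.48 to 2.99, Cxcl11 from -0.24 to 3.30, Cxcr3 from -0.86 to 0.093 (0.054 without Tmem173fl/fl replicate 1, 0.013 without Tmem173iΔmye replicate 2) and the genes past the limits from 218 to 636. List medians ranged from -0.27 to 0.15 (ligand-binding genes), -0.0062 to 0.22 (type I interferon), -0.048 to 0.45 (T helper 1 cytokines), -0.16 to 0.57 (CXC chemokines), 0.27 to 1.34 (T cells), 0.57 to 1.94 (natural killer cells), -0.021 to 0.27 (dendritic cells), -0.32 to 1.03 (neutrophils), -2.81 to 1.57 (B cells), 0.15 to 0.36 (endothelium) and -0.0082 to 0.30 (fibroblasts). The medians of the interferon-gamma, T helper 1, macrophage, smooth muscle and epithelium lists kept their direction. The cause of these changes was not tested. Low counts limit Cxcl11, at 4 to 7 counts in 5 tumors, and Ifng, at or under 3 counts in 5 tumors.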
